A study of Homo sapiens with 8 samples.

Results

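The small nuclear RNA (snRNA) genes transcribed by RNA polymerase II (RNAPII) were examined in RNAPII ChIP-seq of the human breast cancer line MDA-MB-453 after inhibition of CDK9. The 10 genes were chosen by name, and they are RNU4-1, RNU4-2, RNU5A-1, RNU5B-1, RNU5D-1, RNU5E-1, RNU11, RNU12, RNU4ATAC and RNU7-1, out of 64486 annotated genes. Cells received vehicle or 600 nM of the CDK9 inhibitor CDDD11-8 for 4 h, with 2 ChIP libraries for each treatment from independent passages, and peaks had been called in each library against chromatin input. RNAPII was recovered with an antibody to the repeated C-terminal domain of its largest subunit, so that bound RNAPII is reported whether or not it is elongating. All 4 libraries come from a single cell line, and its identity was checked on genes of the mammary lineages. A peak was present in every library at 5 of 5 luminal genes (KRT8, KRT18, GATA3, FOXA1 and SPDEF), at 0 of 4 basal genes (KRT5, KRT14, TP63 and VIM) and at 0 of 2 blood cell genes (PTPRC and CD3E).

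U4 and U5 RNAs belong to the major spliceosome, and U11, U12 and U4atac RNAs to the minor spliceosome, which removes a rare class of introns. RNU7-1 encodes U7 RNA, which is not spliceosomal and directs 3′ end processing of histone pre-mRNA. RNAPII snRNA genes are short and have no introns or polyadenylation signal. They are driven by a distal element, often holding an octamer bound by POU2F1, and a proximal element bound by the SNAPc complex. Their transcripts are cut at the 3′ end by the Integrator complex in front of a 3′ box, and RNAPII runs on past that point before it is released. CDK9 phosphorylates RNAPII and its pausing factors, and on these genes it has been linked to 3′ processing more than to release from a promoter-proximal pause.

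The distal elements are shown first, because the octamer is the feature most of these genes share. The octamer ATGCAAAT, searched on both strands in the 300 bp before each gene, was present at 7 of 10 snRNA genes, and in 1.71% of 19357 protein-coding promoters of the same length. Its first base lay between 203 and 229 bp before the gene start. The stretches below run 5′ to 3′ on the strand of the gene in GRCh37, from 240 to 195 bp before the start, with the octamer in capitals.
RNU4-2 (chr12:120729901-120729946, minus strand): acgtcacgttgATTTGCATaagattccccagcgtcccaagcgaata
RNU5A-1 (chr15:65588149-65588194, plus strand): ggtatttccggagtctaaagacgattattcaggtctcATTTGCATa
RNU5B-1 (chr15:65596775-65596820, plus strand): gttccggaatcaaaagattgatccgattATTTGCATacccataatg
RNU5E-1 (chr1:11967969-11968014, plus strand): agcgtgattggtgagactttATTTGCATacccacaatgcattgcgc
RNU11 (chr1:28974872-28974917, plus strand): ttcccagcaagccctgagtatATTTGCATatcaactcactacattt
RNU4ATAC (chr2:122288217-122288262, plus strand): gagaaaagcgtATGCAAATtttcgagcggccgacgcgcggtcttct
RNU7-1 (chr12:7052739-7052784, plus strand): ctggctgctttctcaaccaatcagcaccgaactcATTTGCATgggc
RNU4-1, RNU5D-1 and RNU12 held no exact octamer in this window. The proximal element was searched on the gene's strand between 80 and 35 bp before the start as a short core in which ACC and AA are separated by 8 bases, and it was found at 2 of 10 genes and in 1.81% of protein-coding promoters. The 2 genes were RNU4-2 and RNU11, whose last 80 bp before the start are given with that core in capitals.
RNU4-2 (chr12:120729707-120729786, minus strand): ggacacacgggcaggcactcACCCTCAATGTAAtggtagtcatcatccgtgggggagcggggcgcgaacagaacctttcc
RNU11 (chr1:28975032-28975111, plus strand): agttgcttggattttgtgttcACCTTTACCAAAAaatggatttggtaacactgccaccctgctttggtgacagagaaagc
A core of the 3′ box, GTTT followed by AAA after 0 to 3 bases on the gene's strand, was found within 50 bp past the 3′ end of RNU5D-1 and RNU5E-1, and in 0.573% of equally long windows at protein-coding genes. It began 11 bp past the 3′ end of both genes, and the first 50 bp past each gene are shown with the core in capitals.
RNU5D-1 (chr1:45196677-45196726, minus strand): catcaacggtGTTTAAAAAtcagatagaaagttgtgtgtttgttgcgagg
RNU5E-1 (chr1:11968329-11968378, plus strand): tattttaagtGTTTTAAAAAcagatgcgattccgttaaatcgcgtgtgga
The other 8 genes did not hold these letters in this window. Each RNA-coding sequence occurred exactly once in the GRCh37 genome, but some were close to one another. RNU4-1 and RNU4-2 agreed at 137 of 141 bases (97.2%), and the bases that differ are in capitals.
RNU4-1 (chr12:120730900-120731040, minus strand): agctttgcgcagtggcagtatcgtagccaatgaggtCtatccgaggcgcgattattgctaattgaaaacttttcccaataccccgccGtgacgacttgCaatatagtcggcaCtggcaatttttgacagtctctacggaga
RNU4-2 (chr12:120729566-120729706, minus strand): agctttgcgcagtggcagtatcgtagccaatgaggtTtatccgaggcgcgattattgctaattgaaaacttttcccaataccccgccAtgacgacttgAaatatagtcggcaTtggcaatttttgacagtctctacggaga
The 300 bp before these genes were only 51.5% identical. RNU5A-1 and RNU5B-1 agreed at 109 of 116 bases (94.0%). The 300 bp before RNU5A-1 and RNU5B-1 were 67.8% identical. Reads that fall wholly within these RNA-coding stretches may be placed at either copy, but most of each RNAPII region lay outside them. The flanks past the 3′ end were not compared, and the placement of reads was not tested.

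The surroundings of the genes differ, and they decide how much of a region can be read as that of the snRNA gene. RNU5D-1 and RNU5E-1 had no protein-coding gene start, and no other of the snRNA genes examined, within 5 kb. Starts of other kinds of gene are not given here. RNU4-1 and RNU4-2 lie in tandem, 1194 bp apart on chromosome 12, and shared 1 region in every library. RNU5A-1 and RNU5B-1 are 8511 bp apart on chromosome 15, and non-coding isoforms of PARP16 start 4452 bp downstream of the former and 4059 bp upstream of the latter. RNU5A-1 thus lies within PARP16, on the opposite strand. RNU11 and RNU12 have divergent coding neighbours, TAF12 at 309 bp and POLDIP3 at 282 bp upstream. RNU4ATAC lies within CLASP1 on the opposite strand, with the start of a CLASP1 retained-intron isoform 136 bp upstream. RNU7-1 lies within C12orf57 on the same strand, and a C12orf57 coding transcript starts inside RNU7-1 itself. PTPN6 starts 2590 bp downstream of RNU7-1, and an ATN1 isoform 4709 bp upstream.

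All 10 genes had an RNAPII region in all 4 libraries. A region here is the span the peak caller listed as 1 peak, together with all its summits, and its fold is the highest enrichment over local background among them. With vehicle, the 10 genes were among the most enriched regions of the genome. Their ranks by fold lay between 8 and 479 of 78306 regions in vehicle replicate 1, and between 24 and 297 of 57493 in vehicle replicate 2. With CDDD11-8 the ranks lay between 651 and 5210 of 25897 regions in replicate 1, and between 106 and 3131 of 21842 in replicate 2. At every gene each of the treated ranks lay below each of the vehicle ranks, although the treated lists were shorter. The same held at 11.4% of the 9263 protein-coding promoters with a region in every library. In bulk chromatin, a change in the number of cells with bound RNAPII and a change in RNAPII per cell cannot be told apart.

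Because the lists differ in length, the genes were also ranked among the 9263 protein-coding promoters that had a region in every library. The median percentile of the 10 genes was 99.4 and 98.8 for the replicates given vehicle, against 81.0 and 92.1 for those given CDDD11-8. The percentile was lower in both CDDD11-8 libraries for 10 of 10 snRNA genes, against 23.9% of the protein-coding promoters. For the percentile among all regions of a library, the count was likewise 10 of 10, against 42.6% of promoters. With equal numbers of regions taken from each library, the percentile among promoters was also lower at 10 of 10. This is hardly a separate check, because a rank among promoters shared by all libraries depends little on list length. No share of promoters is given for this setting. The difference between treatments in the median percentile was -12.6, with -7.02 without CDDD11-8 replicate 1 and -18.1 without CDDD11-8 replicate 2. A gene near the top of a list can move mainly down, so the 50 protein-coding promoters within the top 1% of both vehicle libraries are given for comparison. Their median percentile went from 99.6 in each vehicle library to 96.4 and 98.1 with CDDD11-8, and 32 of 50 (64%) were lower in both. The 2 sets are not matched, since many snRNA genes lay below this cut in at least 1 vehicle library. These were RNU5B-1, RNU5D-1, RNU5E-1, RNU4ATAC, RNU7-1 and RNU12, the last at 94.3 and 96.4 with vehicle. Of the genes that met the cut, RNU4-1 and RNU4-2 share a region. The promoter set also holds TAF12, which shares the region of RNU11. With 2 libraries against 2, the smallest p-value of an exact two-sided permutation test is 0.33, which each of the 10 genes reached, so no single gene can pass a threshold.

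Among the U4 genes, RNU4-1 and RNU4-2 share a region and therefore a value. It stood at the 99.7 and 99.1 percentile with vehicle, and at 90.5 and 98.4 with CDDD11-8, the smallest change in group means of the 10 genes. The highest fold of this region was at RNU4-2 in all 4 libraries.

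The U5 genes differed among themselves. RNU5D-1, which has no protein-coding gene start within 5 kb, stood at 99.6 and 97.9 with vehicle. It stood at 37.6 and 61.4 with CDDD11-8, the lowest of all 10 genes in both treated libraries. There were 39 and 196 protein-coding promoters above it with vehicle, and 5775 and 3575 with CDDD11-8. RNU5E-1, which also has no protein-coding gene start that close, stood at 99.5 and 98.5 with vehicle and at 88.6 and 89.4 with CDDD11-8. RNU5A-1 stood at 99.3 and 99.0 with vehicle, and at 56.1 and 94.8 with CDDD11-8. RNU5B-1 stood at 98.9 and 99.3 with vehicle, and at 56.1 and 97.3 with CDDD11-8. Both of these genes differed more between the CDDD11-8 replicates than CDDD11-8 replicate 2 did from either vehicle library. In CDDD11-8 replicate 1 they shared a single region of 14746 bp, so their values there are the same one.

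Of the minor spliceosome genes, RNU11 ranked highest of all with vehicle, at 99.8 and 99.5, and stood at 90.6 and 94.8 with CDDD11-8. It had 15 and 42 protein-coding promoters above it with vehicle, against 867 and 485. RNU12, the lowest of the 10 genes in vehicle replicate 1, stood at 94.3 and 96.4 with vehicle and at 73.4 and 76.8 with CDDD11-8. RNU4ATAC stood at 99.3 and 96.0 with vehicle and at 55.4 and 87.0 with CDDD11-8. RNU7-1 stood at 99.4 and 98.3 with vehicle and at 89.9 and 86.2 with CDDD11-8. In each of these genes both treated values lay below both vehicle values.

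Folds are given per library as listed. They depend on the depth and background of a library, which these lists do not give, so a difference in fold between libraries is not a measured change in RNAPII. The median fold over the 10 genes was 32.5 and 28.0 with vehicle, and 39.6 and 31.6 with CDDD11-8, and both CDDD11-8 values lay above both vehicle values at 1 of 10 genes and below them at 1 of 10. Among the 9263 protein-coding promoters these shares were 88.3% and 0.594%. RNU12 had the higher values, at 15.6 and 20.2 with vehicle against 35.5 and 24.4, the 35.5 at a summit upstream on the side of POLDIP3, and RNU5D-1 the lower ones, at 35.7 and 23.8 against 22.8 and 20.2. Over the same libraries the median fold of the 9263 protein-coding promoters was 6.20 and 8.50 with vehicle, and 27.0 and 17.6 with CDDD11-8. The snRNA genes therefore stood at a median of 5.24 and 3.30 times the median promoter with vehicle, and at 1.47 and 1.79 times with CDDD11-8. This ratio was lower in both CDDD11-8 libraries for 10 of 10 genes, against 31.6% of promoters. It was 5.75 and 2.80 at RNU5D-1 with vehicle, and 0.848 and 1.15 with CDDD11-8, and RNU5D-1 in CDDD11-8 replicate 1 was the sole value below the median promoter.

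A region can take its fold from a neighbouring promoter, so the summits at the genes themselves were ranked. The highest fold of the region lay at the gene, from 250 bp before its start to 1 kb past its end, in all 4 libraries for 7 of 10 genes. The exceptions were RNU4-1, whose region peaked at RNU4-2, and RNU12 and RNU5B-1, each in 1 library. Counting only summits within 250 bp of the gene, 9 of 10 genes had a summit in every library, and 9 of these 9 ranked lower among promoters in both CDDD11-8 libraries. This rank set the summit at the gene against the highest fold of each promoter's whole region, an unlike measure. The matching share of promoters was not computed. RNU4ATAC then stood at 91.2 and 96.0 with vehicle, and at 55.4 and 87.0 with CDDD11-8. RNU4-1 had no such summit in vehicle replicate 1 or CDDD11-8 replicate 2. The coding neighbours TAF12, POLDIP3, C12orf57 and PTPN6 fell in the same regions as RNU11, RNU12 and RNU7-1 and had their percentiles. ATN1, which shared the RNU7-1 region and its value in vehicle replicate 2, stood at 86.2 and 98.3 with vehicle and at 66.1 and 48.1 with CDDD11-8. PARP16 went the other way, at 31.5 and 32.9 with vehicle against 53.8 and 41.6, and CLASP1 overlapped between treatments, at 55.5 and 37.7 against 38.0 and 42.0.

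Within the gene neighbourhood, the strongest summit mostly lay past the 3′ end of the RNA. The window used reaches farther past the end than before the start, and the matching share of protein-coding promoters was not computed. Between 250 bp before the start and 1 kb past the end, it lay past the 3′ end at 8 of 10 genes in vehicle replicate 1, vehicle replicate 2 and CDDD11-8 replicate 1, and at 10 of 10 in CDDD11-8 replicate 2. Its median position was 137.5 and 42 bp past the end with vehicle, and 188.5 and 192.5 bp with CDDD11-8. Among summits within 250 bp of the gene, the strongest lay past the end at 5 of 9 genes in vehicle replicate 1 and 8 of 10 in replicate 2. With CDDD11-8 it did so at 6 of 10 and 8 of 9. The median distance of this summit from the gene start was 148 and 170.5 bp with vehicle, and 227 and 211 bp with CDDD11-8. For 7689 protein-coding promoters the median was also larger with CDDD11-8, at 53 and 57 bp against 40 and 40 bp with vehicle. At RNU5A-1 it was 161 and 173 bp from the start with vehicle, and 349 and 287 bp with CDDD11-8. At RNU5B-1 it was 273 and 211 bp with vehicle, and 283 and 300 bp with CDDD11-8. The summit at RNU4ATAC lay 225 and 81 bp before the start with vehicle, on the side of the CLASP1 isoform start, and 375 and 329 bp after it with CDDD11-8. A stronger summit lay 441 bp from the RNU4ATAC start in vehicle replicate 1, outside this window and beyond both treated summits, so that the treatments overlapped once summits up to 1 kb past the end were counted. At RNU7-1 it was 197 and 158 bp from the start with vehicle, and 201 and 211 bp with CDDD11-8. A C12orf57 coding transcript starts inside RNU7-1, so this summit may be that of either gene. The treated summits within 250 bp of the gene lay farther along in both libraries at these 4 of 10 genes, against 21.7% of 7689 protein-coding promoters with such a summit in every library. At RNU4-2, RNU5D-1, RNU5E-1, RNU11 and RNU12 the treatments overlapped, and RNU4-1 lacked a summit in 2 libraries. At RNU4-2 the summit lay inside the RNA-coding stretch in 3 libraries, 60, 75 and 63 bp from the start, and at 161 bp in CDDD11-8 replicate 2.

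The first 1 kb past the 3′ end was fully covered by a region at 10 of 10 genes in all 4 libraries, as was the 1 kb before the start. No gene could therefore rise there, where 21.0% of 10625 protein-coding genes with a promoter region in any library did so in both CDDD11-8 libraries. Between 1 and 2 kb past the 3′ end, the mean share of bases covered was 97.6% and 87.2% with vehicle, and 100% and 100% with CDDD11-8. The same window at protein-coding genes, taken past the first 150 bp of the transcript, went from 51.3% and 51.5% to 74.9% and 68.5%. At 5 of 10 snRNA genes this window was full in both vehicle libraries, against 24.2% of protein-coding genes, and at 10 of 10 in both CDDD11-8 libraries. The 5 include RNU4-1, whose window holds RNU4-2, and RNU7-1, which lies within C12orf57, so cover there may be that of another gene. Coverage was higher in both CDDD11-8 libraries at 2 of 10 genes, against 37.0% of protein-coding genes, and lower at 0 of 10, against 3.09%. RNU5D-1 had 77.4% and 55.0% of these bases covered with vehicle, and RNU5B-1 had 98.8% and 81.7%, before reaching 100% in both treated libraries. RNU4ATAC was at 100% and 58.3%, RNU12 at 100% and 80.0%, and RNU11 at 100% and 96.8% with vehicle, so that 1 vehicle library was already full. Without vehicle replicate 1 the count was 5 of 10, and the difference in mean coverage was 12.8 percentage points, against 7.60 with all libraries and 2.38 without vehicle replicate 2. When only 250 bp either side of each summit were counted in place of whole regions, the direction turned, with a difference of -4.37 percentage points.

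Between 2 and 5 kb past the 3′ end the window was rarely full. The mean covered share was 47.3% and 33.0% with vehicle, and 52.7% and 45.6% with CDDD11-8, and the vehicle replicates differed from each other by more than the group means did. The difference of 9.03 percentage points was 1.85 without vehicle replicate 2 and 16.2 without vehicle replicate 1, and -2.30 when counted around summits. Coverage was higher in both CDDD11-8 libraries at 4 of 10 genes, against 19.0% of protein-coding genes, and lower at 1 of 10, against 14.6%. RNU5A-1 had 41.4% and 60.3% covered with vehicle, and 100% and 94.8% with CDDD11-8. RNU5A-1 lies within PARP16, a PARP16 isoform starts within this window, and the 100% comes from the region shared with RNU5B-1. RNU5B-1 had 10.8% and 0% with vehicle, and 38.6% and 20.0% with CDDD11-8. RNU5D-1 had none covered in either vehicle library, and 9.53% and 15.3% with CDDD11-8. RNU4ATAC had 19.2% and 0% with vehicle, and 41.9% and 19.6% with CDDD11-8, a gap of less than 1 percentage point between the closest libraries. The gene that was lower was RNU7-1, at 100% and 97.9% with vehicle and 96.6% and 72.6% with CDDD11-8, where PTPN6 lies in the same window. At RNU4-1, RNU4-2, RNU5E-1, RNU11 and RNU12 the treatments overlapped.

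The distance a region reached past the 3′ end had a median of 3040 and 2167 bp with vehicle, and 3207 and 2963 bp with CDDD11-8. It was longer in both CDDD11-8 libraries at 6 of 10 genes, against 59.2% of protein-coding promoters, and shorter at 1 of 10, against 9.89%. These counts stood near those of promoters. At RNU5D-1, where no protein-coding gene start is close, the region reached 1774 and 1550 bp past the end with vehicle, and 2286 and 2458 bp with CDDD11-8. At RNU5E-1 it reached 3965 and 3357 bp with vehicle, and 4021 and 4478 bp with CDDD11-8. RNU11 reached 2658 and 1968 bp with vehicle, and 2886 and 3061 bp with CDDD11-8. At RNU7-1 the reach was 5158 and 4936 bp with vehicle, and 4899 and 4179 bp with CDDD11-8.

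The regions were also measured upstream of the start. They reached 7730 to 8172 bp upstream of RNU11 across the libraries, over TAF12, and 8570 to 20779 bp upstream of RNU7-1, and the order of the treatments was not the same at both. The reach upstream was longer in both CDDD11-8 libraries at 4 of 10 genes, against 66.8% of promoters. Coverage 1 to 2 kb upstream was higher in both at 1 of 10 genes, RNU4-1, against 41.9% of protein-coding genes. It was already full in both vehicle libraries at 4 of 10 genes. At RNU5D-1 it was 76.4% and 43.5% with vehicle, and 62.7% and 53.4% with CDDD11-8. The treatments thus overlapped upstream of RNU5D-1, whose downstream coverage was higher in both treated libraries.

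The full width of a region had a median of 6344 and 5289.5 bp with vehicle, and 6635.5 and 6304.5 bp with CDDD11-8, whereas the median protein-coding promoter region was 3075 and 3172 bp with vehicle, and 4944 and 4416 bp with CDDD11-8. It was wider in both CDDD11-8 libraries at 5 of 10 snRNA genes, against 64.5% of promoters, and narrower at 1 of 10, against 9.49%. RNU5D-1 had the narrowest region in every library, at 3532 and 3101 bp with vehicle and 4029 and 4108 bp with CDDD11-8. RNU5A-1 was at 5368 and 4723 bp with vehicle, and at 14746 and 6429 bp with CDDD11-8, the first of these being the region it shared with RNU5B-1. RNU7-1 was the gene whose region was narrower, at 16055 and 25778 bp with vehicle and 14917 and 12812 bp with CDDD11-8.

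**Figure D1:**
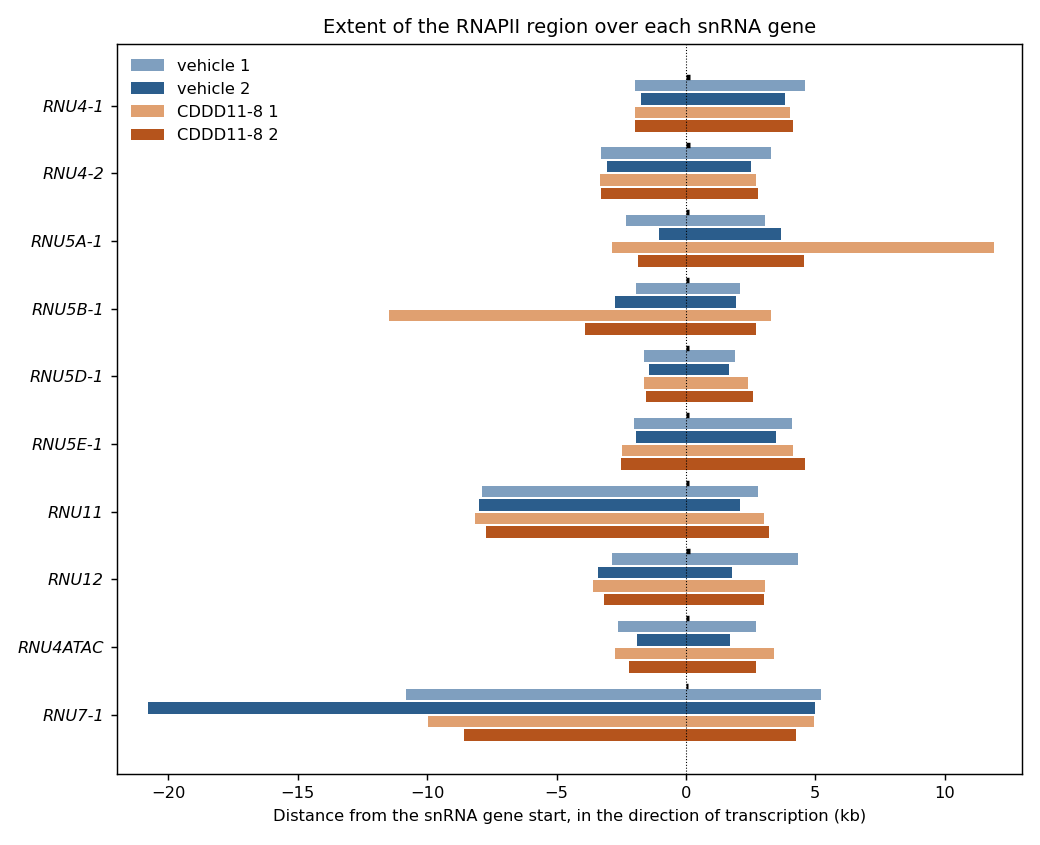
Extent of the RNAPII region over each snRNA gene, in kb from the gene start in the direction of transcription, with 1 bar per library and the gene as a short black line. RNU5D-1 has the narrowest regions, RNU4-1 and RNU4-2 share theirs, and the long bar at RNU5A-1 and RNU5B-1 in CDDD11-8 replicate 1 is 1 region of 14746 bp.

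Other RNAPII-transcribed snRNA and snoRNA genes were examined as a listed group, of which 10 of 12 were found in the annotation and all 10 had a region in every library. Their median percentile among promoters was 98.6 and 94.9 with vehicle, and 48.8 and 69.7 with CDDD11-8, and 8 of 10 were lower in both CDDD11-8 libraries, against the 23.9% given above. RNU1-1, a U1 gene, stood at 99.5 and 97.5 with vehicle and at 52.7 and 84.1 with CDDD11-8. The U2 locus RNU2-2P overlapped between treatments, at 99.5 and 99.6 with vehicle and 98.1 and 99.9 with CDDD11-8. Coverage 1 to 2 kb past the 3′ end was higher in both treated libraries at 3 of 10 and lower at 0 of 10, near the 37.0% and 3.09% of protein-coding genes. The 2 largest rises were SNORD13, from 0% in both vehicle libraries to 90.1% and 36.5%, and RNVU1-7, from 13.1% and 8.0% to 77.7% and 47.7%. U1 genes and their variants are near-identical copies, so their values are uncertain.

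Small RNA genes transcribed by RNA polymerase III, which share the proximal element but not the polymerase, were taken for comparison. Of 9 listed, 8 were found and 3 had an RNAPII region in every library, RMRP, RNU6-2 and RNU6-9, while RN7SK and RNU6-8 had none at the gene in any. Among these 3, the percentile was lower in both CDDD11-8 libraries at RMRP and RNU6-9 and higher at RNU6-2, where 23.9% of promoters were lower and 23.5% higher. RMRP stood at 57.2 and 36.8 with vehicle and at 4.70 and 8.15 with CDDD11-8, far below the RNAPII snRNA genes in both treatments. Coverage 1 to 2 kb past the end was higher at 2 of 8 in both treated libraries, RNU6-2 and RNU6-8, and lower at 1 of 8, RNU6-9, beside the same 37.0% and 3.09%. RNU6-2 went from 0% in both vehicle libraries to 100% and 81.3%, RNU6-8 from 0% in both to 78.5% and 76.8%, and RNU6-9 from 100% in both to 21.7% and 21.2%.

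The protein-coding genes that make and process snRNAs are given by list, and each count is read against all promoters, of which 23.9% were lower and 23.5% higher in percentile, and against all protein-coding genes, of which 37.0% were covered more and 3.09% less. All 15 Integrator subunit genes had a promoter region in every library, and the percentile was lower in both CDDD11-8 libraries at 6 and higher at 3. Coverage 1 to 2 kb into the gene was higher at 8 of 15 and lower at 0, with the largest rises at INTS1 (from 0% and 3.4% to 100% and 100%) and INTS13 (from 0% in both to 87.2% and 100%). INTS11, the endonuclease subunit, went from the 18.5 and 71.0 percentile with vehicle to 98.0 and 90.9. Of 8 genes for SNAPc subunits and activators of snRNA genes, 3 were lower and 1 was higher in percentile. Coverage was higher at 4 of these 8 and lower at 0, with the largest rises at SNAPC1 (from 0% in both to 100% and 68.9%) and POU2F1 (from 57.9% and 35% to 100% in both).

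The counts of the shorter lists stood beside the same shares (37.0% covered more, 3.09% less, 23.9% lower and 23.5% higher in percentile). Of 5 genes of the little elongation complex, which acts on snRNA genes, coverage was higher at 2 and lower at 0, and the percentile was lower at 1 and higher at 2. ICE1 went from 0% covered in both vehicle libraries to 100% in both CDDD11-8 libraries, and ELL from 43.3% and 0% to 100% in both. Of 4 genes for cap binding and export of snRNAs, coverage was higher at 1 and lower at 0, and the percentile was lower at 1 and higher at 1. The gene was NCBP1, which went from 0% in both vehicle libraries to 100% in both treated ones. Of 14 genes of the Sm ring and the SMN complex that assembles it, coverage was higher at 4 and lower at 1, and the percentile was lower at 3 and higher at 2. The 2 largest rises were DDX20 (from 44.6% and 81.2% to 100% in both) and GEMIN5 (from 0% in both to 46.2% and 24.8%), and the gene that fell was SNRPF (from 81.2% and 100% to 73.6% and 70.9%). The luminal genes named above were lower in percentile in both treated libraries at 5 of 5, against 23.9% of promoters, with KRT8 and KRT18 sharing the values of 1 region. GATA3 stood at 99.7 and 99.8 with vehicle and at 91.7 and 89.4 with CDDD11-8, and their coverage 1 to 2 kb into the gene was full in every library.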

How the data were processed

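Peak lists of 4 RNAPII ChIP-seq libraries were used, 2 with vehicle and 2 with CDDD11-8. Bowtie 2 (alignment to GRCh37) and MACS2 (peaks of each library over chromatin input, replicates not pooled) were the tools of the authors. The deposited lists give for every summit a pileup signal, a fold enrichment (a ratio over local background), and −log10 p-values and q-values, with position and length. The smallest step of the deposited pileup signal was 1 in both vehicle lists and 0.74 and 0.96 in the CDDD11-8 lists, so it was taken as scaled and was not compared. The lists give no read counts, so depth is unknown and no interval was computed.

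Summits with the same start and end were joined into 1 region with their highest fold. The 10 snRNA genes and the gene lists were chosen with earlier results of these data known. Genes came from GENCODE in GRCh37 coordinates. RNU11 and RNU12 were identified by Ensembl ID and their RefSeq neighbours, and RNU12 was given its RefSeq length of 150 bp, since the annotation lists a longer host transcript. Windows were measured from the gene ends. Protein-coding genes were represented by their isoform of longest span, with the first 150 bp as the gene. A gene was called higher or lower when both CDDD11-8 values lay above or below both vehicle values. Coverage calls at protein-coding genes used the 10625 with a promoter region in at least 1 library, and calls on fold, rank, width and reach used the 9263 with one in every library. Two-sided exact permutation tests compared the libraries of 1 gene. The genes named are the 10 snRNA genes, the protein-coding genes that hold them or start within 5 kb, and the 2 largest rises and falls in coverage of each list. The list genes INTS11, RNU1-1, RNU2-2P, RMRP, RNU6-8, RN7SK and GATA3, named for another reason, were chosen after their values were seen. The ranking among protein-coding promoters and the top 1% of promoters were also added after the data had been seen. Sequences were read from the GRCh37 genome. A listed marker gene and a pair of sequences are not reported here.

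Alternatives were a −log10 q of at least 5, equal numbers of regions (21842 per library), regions within 1 kb merged, 250 bp either side of each summit in place of regions, genes without close neighbours, a replicate block and the omission of single libraries. The measures recovered all values planted at simulated regions. Scripts ran in Python 3.11.15 with matplotlib 3.10.9, numpy 2.4.6, pandas 2.3.3, pysam 0.24.0 and biopython 1.88.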

Additional observations from a re-analysis of the deposited data

How the results depend on the processing

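Values are CDDD11-8 minus vehicle group means of the mean (coverage) or median over the 10 genes, or counts of genes. Counting 250 bp either side of each summit in place of regions turned coverage 1 to 2 kb past the 3′ end to -4.37 percentage points (7.60 with regions), and gave -1.60 at 0 to 1 kb, -2.30 at 2 to 5 kb and -15.8 at 1 to 2 kb upstream. RNU5D-1 and RNU5E-1 were the 2 genes with no protein-coding gene start or other gene of the 10 within 5 kb. For these 2 genes, coverage at 1 to 2 kb differed by 16.9 points and the percentile among all regions by -10.2. The percentile among promoters differed by -29.6 and the summit by 29.8 bp. Of these, 2 had a peak, 1 was covered more at 1 to 2 kb and 2 were lower in percentile among promoters. For the 5 with no coding transcript start within 5 kb, an alternative added after seeing the data, the values were 12.9 and 23.7 points at 1 to 2 and 2 to 5 kb, 1533.5 bp in width, -8.43 and -26.1 in the percentiles among all regions and among promoters, and 124.5 bp in summit position. All 5 had a peak and all 5 were lower in percentile among promoters.

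The percentile among all regions differed by -3.93, by -5.83 at a −log10 q of at least 5 and by -6.13 with regions within 1 kb merged, and among promoters by -12.6. Summits within 250 bp of the gene gave -23.4 among promoters, and summits within 1 kb moved the summit position to 113.5 bp, from 59.8 bp. With merging, 1 gene was covered more at 1 to 2 kb. With single libraries left out, that count ranged from 2 to 5, the 5 without vehicle replicate 1, and the difference ranged from 2.38 to 12.8 points at 1 to 2 kb, from 1.85 to 16.2 points at 2 to 5 kb, and from -18.1 to -7.02 in percentile among promoters. Leaving out vehicle replicate 2 gave the lowest coverage differences, and also -1.67 points at 1 to 2 kb upstream, against 2.98 with all libraries. The cause of these shifts was not tested.

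Of 139 alternative values, 113 were within the limits set for no change. They include replicate-block differences, which could not move, and coverage at 0 to 1 kb, where regions filled the window in every library. Same-numbered libraries did not deviate together across protein-coding genes (correlations of 0.011, 0.030 and -0.031 for coverage at 1 to 2 kb, at 2 to 5 kb and percentile among promoters), so the numbers were not taken as pairs. A replicate block leaves a difference of group means unchanged by construction, so it is no check on them. Coverage thus differed by 7.60 points at 1 to 2 kb and 9.03 at 2 to 5 kb, the percentile among promoters by -12.6 and that among all regions by -3.93. Counts could not fall under the block, and they stayed at 10 genes with a peak, 2 covered more and 10 lower in percentile. Peak lists without read counts limit all of this: a window that is full cannot rise, and a base just under the caller's threshold counts as not covered.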
